A study of Homo sapiens with 6 samples.

Results

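The enzymes described here are those of the tricarboxylic acid (TCA) cycle, in 786-O cells. They were chosen by name: the 9 genes CS, ACO1, IDH1, IDH2, IDH3A, OGDH, FH, MDH1 and MDH2 out of 58735 genes in the deposited count table, with values of the same comparison already known. Their differences between the groups are therefore given as a description, without a test. Each of the 9 had a row of its own, and each passed the filter on low counts that left 14573 tested genes. The cells were 786-O, an established clear cell renal carcinoma line without functional VHL. By their labels, 3 libraries were sh-CBX7, a hairpin RNA directed at CBX7, and 3 were sh-Control, a control hairpin. The count table names the sh-CBX7 columns siCBX7, so the names differ on the kind of silencing RNA. CBX7 is a chromobox subunit of Polycomb repressive complexes. The labels do not say how many hairpins or clones were used, nor whether cultures were separate, so the p-values rest on a spread between libraries that may be technical.

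The TCA cycle oxidises acetyl groups in the mitochondrial matrix, yields NADH for the respiratory chain, and supplies citrate, 2-oxoglutarate and oxaloacetate for synthesis. Aconitase, isocitrate dehydrogenase and malate dehydrogenase also exist in the cytosol, as products of separate genes. In cells without VHL, carbon from glutamine can run backwards through isocitrate dehydrogenase to citrate, and inherited loss of fumarate hydratase predisposes to renal cancer.

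IDH2, the mitochondrial NADP-dependent isocitrate dehydrogenase, stood apart from the other 8 members, with a level 5.31-fold lower in sh-CBX7 than in sh-Control. ACO1 was 2.11-fold lower, OGDH 1.51-fold, MDH1 1.40-fold and FH 1.38-fold. CS, IDH1, IDH3A and MDH2 lay within 1.11-fold of their sh-Control level. In the edgeR quasi-likelihood fit over all tested genes (Benjamini-Hochberg adjusted p below 0.05), 5 of 9 members were lower and 1 was higher in sh-CBX7. In bulk RNA, fewer cells expressing a gene and less of its RNA per cell cannot be told apart. Over all tested genes 27.2% were lower, 26.1% higher and 53.3% called in either direction, and nothing is read from the members' count, since the members were chosen on this comparison. The median log2 fold change was -0.47 over the members and -0.006 over all tested genes.

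Sequence is shown first for IDH2, because its transcript shares a stretch with that of CBX7. Earlier results of these data had pointed to a stretch in the CBX7 coding sequence of which 16 bases in a row are also found in SEC22A, a vesicle transport gene, and which recurs with 2 mismatches in the cytoplasmic actin gene ACTG1. The 19 bases below begin at base 497 of the transcript CBX7-201 (GENCODE 29, GRCh38, chr22:39134690-39134708, minus strand). For each other gene the closest ungapped place in its transcript is given, capitals marking bases identical to CBX7.
CBX7: CAAGGAGAAGCTCTGCTTC
IDH2: CAAGGAGAAGCTCatCcTg
SEC22A: agAGGAGAAGCTCTGCTTt
ACTG1: CAAGGAGAAGCTgTGCTaC
In IDH2 the first 13 bases were identical, and the substitutions T14A, G15T, T17C and C19G, counted from the 5′ end of the CBX7 stretch, fell in the other 6. The place lies in the coding sequence of IDH2-201, from base 312 of the transcript, across an exon junction (chr15:90090636-90091562, minus strand, with an intron between). This run of 13 bases was also the longest that the whole IDH2 transcript shares with that of CBX7. The longest runs of the other 8 members were 10 to 13 bases and lay elsewhere in CBX7. Those of CS, OGDH and FH were 13 bases, as long as that of IDH2.

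The 13-base run was held by 6 tested genes besides CBX7. Among those reported here the log2 fold changes were -2.41 for IDH2, -1.73 for FCGRT, which encodes the neonatal Fc receptor, -0.59 for CRACR2A, -0.42 for TSEN54, a subunit of the tRNA splicing endonuclease, and -0.11 for MYPOP. The genes other than IDH2 were named for holding the run, outside the rule for named genes, after their values were seen. IDH2 and FCGRT were thus lower in sh-CBX7 by more than 1 on the log2 scale, and MYPOP was not called (edgeR adjusted p = 0.673). Among 12422 tested genes with a coding transcript, 3.36% were lower by more than 1 on that scale. That share was 8.91% of the 258 genes with at most 4 mismatches to the CBX7 stretch, 4 being the number in IDH2. With 5, 6 and 7 mismatches it was 4.31% of 1486, 3.25% of 4518 and 3.15% of 4977 genes. The 258 include IDH2 and also SEC22A and ACTG1, whose differences had pointed to the stretch, so the share of 8.91% is not independent of them. Without these 3, a choice made after seeing the data, it was 7.84% of 255. Of the 3 genes with 2 mismatches, ACTG1 among them, 2 were lower by more than 1, and HMGXB3 had a log2 fold change of 0.33. Of the 224 genes with 4 mismatches, IDH2 among them, 16 were lower by more than 1. Also in this class, FASN had -1.17, POLRMT -0.30, SDHC 0.26 and ME3 1.04. ME3 was low, averaging 2.26 CPM in sh-CBX7 and 1.11 CPM in sh-Control, and its groups overlapped. A longer transcript offers more places to match, and transcript length was not compared between the mismatch classes. The sequence of the hairpin, or of another silencing RNA, is not given in the sources used here, and any part of this stretch in the difference of IDH2 was not tested.

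**Figure D1:**
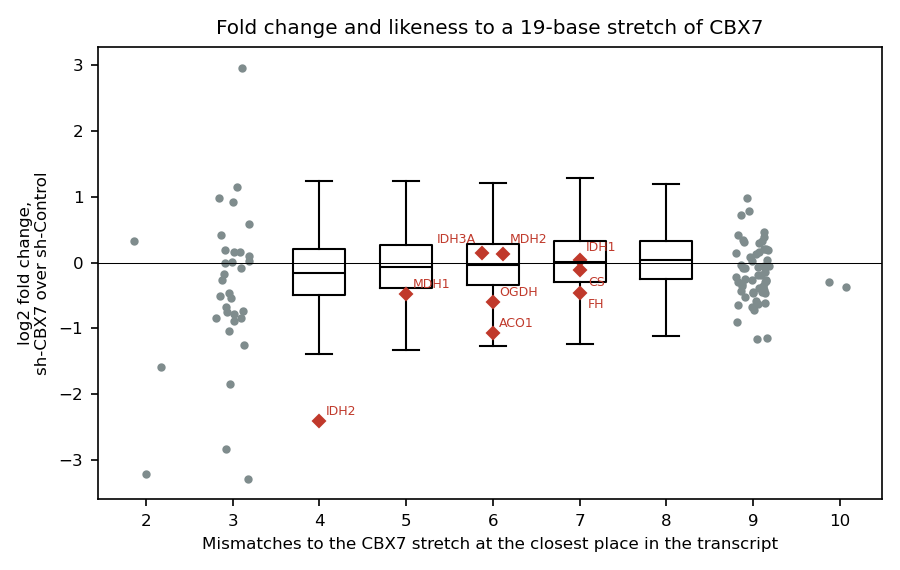
Log2 fold change (sh-CBX7 over sh-Control) against the number of mismatches to the CBX7 stretch at the closest place in each gene's transcript. Boxes show medians and quartiles with whiskers to 1.5 times the box height and outlying genes left out, grey points single genes where a class has at most 100, and red diamonds the 9 members; IDH2, at 4 mismatches and -2.41, lies below the whisker of its class.

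The CBX7 stretch contains the 7 bases CTCTGCT, which earlier results of these data had singled out in 3′ UTRs. It was searched for on the transcript strand of the 3′ UTR of 1 transcript per gene. Of the 9 members 3 hold it, ACO1, OGDH and IDH3A, and of the other cycle enzymes SDHD and SDHC. The sites are printed because ACO1 and SDHD were the second lowest member and the lowest other enzyme, while IDH3A was not lower and SDHC was higher (log2 fold change 0.26); capitals mark CTCTGCT and lower case its flanks.
ACO1: tcttacgCTCTGCTcaatgaa
OGDH, first site: cccctccCTCTGCTctcatag
OGDH, second site: gcccaggCTCTGCTgacttct
IDH3A: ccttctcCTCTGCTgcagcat
SDHD: tctttgcCTCTGCTttgtcat
SDHC, first site: cctagttCTCTGCTttctttt
SDHC, second site: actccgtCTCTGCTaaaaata
On GRCh38 these lie at chr9:32450491-32450511, chr7:44708120-44708140, chr7:44708194-44708214, chr15:78170195-78170215, chr11:112095009-112095029, chr1:161370501-161370521 and chr1:161372855-161372875, each on the plus strand. Of 12145 tested genes with a 3′ UTR, 20.9% hold CTCTGCT. The median log2 fold change was -0.13 for genes with it and 0.011 for genes without, but the median 3′ UTR was also longer with it, 2505 against 901 bases. Among the genes printed above, the 3′ UTR searched ran from 827 bases in SDHD to 12910 in SDHC, and its use in these cells was not tested. CS, IDH1, IDH2, FH, MDH1 and MDH2 have no CTCTGCT in the 3′ UTR searched, which was short in FH (228 bases) and MDH1 (213 bases). The part of the sequence in any of these differences was not tested.

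Citrate synthase, CS (ENSG00000062485; chromosome 12, 56271699 to 56300392, minus strand), which joins acetyl-CoA and oxaloacetate, had 123.7, 125.7 and 116.5 CPM in the sh-CBX7 libraries and 125.0, 135.5 and 134.4 CPM in the sh-Control libraries. CPM are counts scaled to a common library size, here normalised between libraries with TMM. The groups overlapped, and CS had a log2 fold change of -0.11 (SE 0.06). CS was not called with all 6 libraries, but was without sh-Control replicate 1, where its log2 fold change was -0.146.

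ACO1 (ENSG00000122729; chromosome 9, 32384603 to 32454769, plus strand) encodes the cytosolic aconitase, which turns citrate into isocitrate and, without its iron-sulphur cluster, binds iron-responsive elements of messenger RNAs. It had 53.70, 52.30 and 49.38 CPM in sh-CBX7, against 106.0, 111.2 and 110.0 CPM in sh-Control. Each sh-CBX7 library was below each sh-Control library, and the log2 fold change was -1.07 (SE 0.06).

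The isocitrate dehydrogenases differed among themselves. IDH2 (ENSG00000182054; chromosome 15, 90083045 to 90102504, minus strand) had 39.38, 41.73 and 41.14 CPM in sh-CBX7, against 224.6, 211.9 and 213.2 CPM in sh-Control. The groups were far apart relative to their spread (40.7 ± 1.22 CPM in sh-CBX7 and 217 ± 7.0 CPM in sh-Control, SD, n = 3 each), with a log2 fold change of -2.41 (SE 0.06). By log2 fold change IDH2 ranked 20 from the lowest of 14573 tested genes. IDH1 (ENSG00000138413; chromosome 2, 208236227 to 208266074, minus strand), the cytosolic and peroxisomal NADP-dependent enzyme, had 178.4, 180.2 and 170.6 CPM in sh-CBX7 and 172.8, 170.1 and 171.0 CPM in sh-Control. Its groups overlapped, with a log2 fold change of 0.04 (SE 0.06). IDH3A (ENSG00000166411; chromosome 15, 78131498 to 78171949, plus strand), the catalytic subunit of the NAD-dependent enzyme, had 20.38, 23.01 and 20.54 CPM in sh-CBX7, against 18.87, 20.18 and 18.78 CPM in sh-Control. The groups of IDH3A just failed to overlap, but its log2 fold change of 0.14 (SE 0.10) was not called.

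OGDH (ENSG00000105953; chromosome 7, 44606572 to 44709066, plus strand), the first component of the 2-oxoglutarate dehydrogenase complex, had 51.32, 54.83 and 57.05 CPM in sh-CBX7, against 84.69, 80.77 and 81.49 CPM in sh-Control. FH (ENSG00000091483; chromosome 1, 241497603 to 241519761, minus strand), the fumarate hydratase, had 77.37, 74.64 and 74.94 CPM in sh-CBX7, against 99.54, 105.6 and 108.8 CPM in sh-Control. Neither gene's groups overlapped, and the log2 fold changes were -0.60 (SE 0.07) for OGDH and -0.47 (SE 0.06) for FH.

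Of the malate dehydrogenases the cytosolic one was lower and the mitochondrial one was not. MDH1 (ENSG00000014641; chromosome 2, 63588609 to 63607197, plus strand), the cytosolic enzyme of the malate-aspartate shuttle, had 138.7, 139.8 and 127.1 CPM in sh-CBX7, against 186.1, 196.0 and 184.3 CPM in sh-Control, without overlap (log2 fold change -0.48, SE 0.06). MDH2 (ENSG00000146701; chromosome 7, 76048051 to 76067508, plus strand), the matrix enzyme, had 543.2, 528.5 and 485.4 CPM in sh-CBX7, against 493.9, 453.3 and 470.6 CPM in sh-Control. The groups of MDH2 overlapped, and its log2 fold change of 0.14 (SE 0.06) was the 1 higher call. That call was lost in 5 of 14 alternative fits, among them those without sh-CBX7 replicate 1 or 2 and those without sh-Control replicate 2 or 3.

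In all, the groups did not overlap for 6 of the 9 members, where 59% of all tested genes had groups that did not overlap. Exons of other genes overlap those of CS, IDH1, IDH3A and MDH1, so their reads are less certain. For genes on opposite strands this depends on the strand setting of the counting, which is not given in the sources used here. AC073896.1 shares 220 bases with CS on the same strand, and had 0 counts in each library. ACSBG1, on the opposite strand, shares 2608 bases with the exons of IDH3A and had at most 4 counts in a library. CIB2, also on the opposite strand, shares 47 bases with IDH3A and had 33 to 86 counts. IDH1-AS1 shares 94 bases with IDH1 and had 17 to 23 counts in sh-CBX7 and 25 to 35 in sh-Control. No gene's exons overlap those of ACO1, IDH2, OGDH, FH or MDH2, and the 1 pseudogene named after a member, FHP1, had 0 counts in each library.

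**Figure D2:**
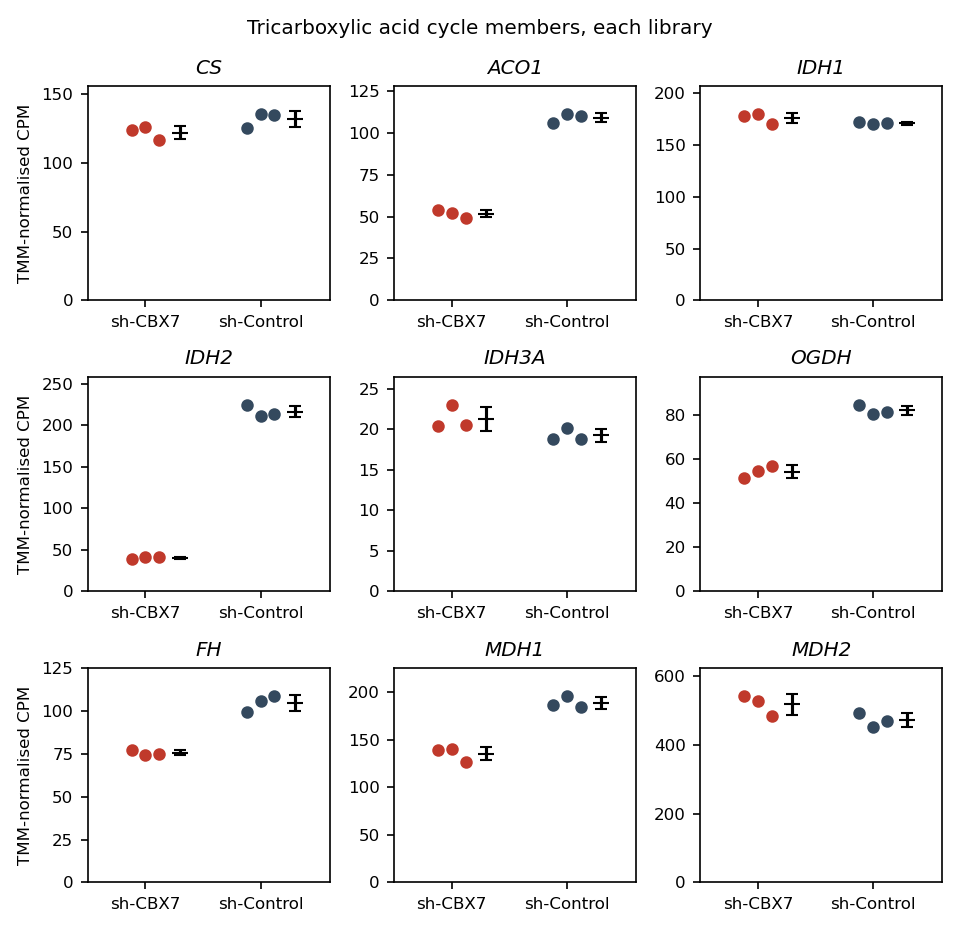
Level of each member in each library (TMM-normalised CPM, axes from 0), sh-CBX7 in red and sh-Control in dark blue, with the mean and SD of 3 libraries in black. IDH2 lies at 39.38 to 41.73 CPM in sh-CBX7 and 211.9 to 224.6 CPM in sh-Control, whereas the groups of CS, IDH1 and MDH2 overlap.

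Levels of different members were compared per length, as CPM divided by the deposited gene length in kilobases (RPKM). That length exceeds the length of the transcript searched above by unlike amounts. It is 4990 against 1650 bases for MDH1, but 2814 against 2694 for IDH2. The order of members, their shares and the ratios between them thus depend on the length taken, and transcript lengths were not tried. IDH2 ranked 6 of 9 in sh-CBX7 and 2 of 9 in sh-Control, and IDH1 ranked 2 and 5. In sh-CBX7 the mean levels were 142.6 RPKM for MDH2, 37.4 for IDH1, 35.3 for FH, 27.1 for MDH1, 19.1 for CS, 14.5 for IDH2, 10.4 for OGDH, 6.86 for ACO1 and 3.12 for IDH3A. In sh-Control they were 129.8 RPKM for MDH2, 77.0 for IDH2, 48.9 for FH, 37.8 for MDH1, 36.3 for IDH1, 20.6 for CS, 15.8 for OGDH, 14.4 for ACO1 and 2.82 for IDH3A. By the deposited lengths, no 2 neighbours in either order had overlapping ranges. IDH1 and FH nearly met in sh-CBX7 (36.14 to 38.17 and 34.85 to 36.12 RPKM), as did MDH1 and IDH1 in sh-Control (36.94 to 39.27 and 36.03 to 36.6 RPKM). IDH2 made up 4.6% to 5.16% of the members' summed RPKM in sh-CBX7 libraries and 19.8% to 20.6% in sh-Control libraries. Without IDH2 the sums were 268.6 to 290.2 RPKM in sh-CBX7 and 303.4 to 308.6 RPKM in sh-Control.

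Enzymes that catalyse the same step in cytosol and mitochondria were set against each other in each library, by the same deposited lengths. The ratio of IDH1 to IDH2 was 2.70, 2.57 and 2.47 in sh-CBX7 and 0.459, 0.479 and 0.478 in sh-Control, so the cytosolic transcript was the more abundant per length in sh-CBX7 and the mitochondrial one in sh-Control. The ratio of MDH1 to MDH2 was 0.186, 0.193 and 0.191 in sh-CBX7 and 0.275, 0.315 and 0.286 in sh-Control. Relative to sh-Control, the ratio in sh-CBX7 was thus higher for isocitrate dehydrogenase and lower for malate dehydrogenase, with no overlap between the groups in either ratio.

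**Figure D3:**
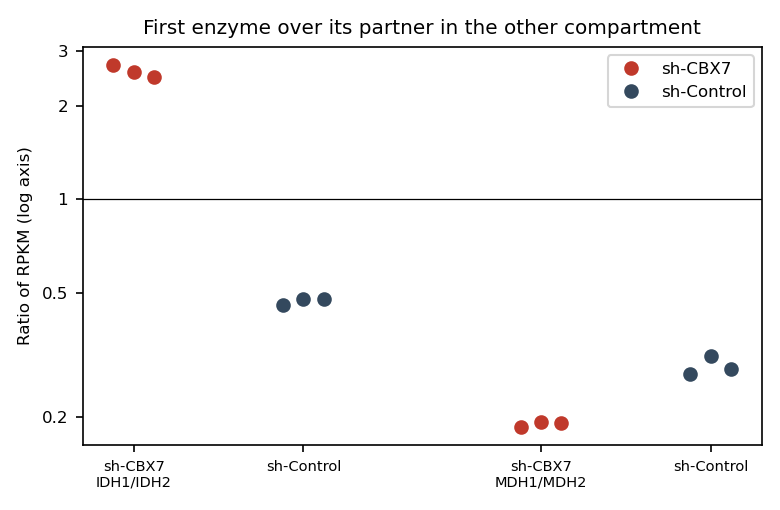
Ratio of RPKM between paired enzymes (log axis; the line marks 1) in each library, sh-CBX7 in red and sh-Control in dark blue. IDH1/IDH2 is 2.47 to 2.70 in sh-CBX7 and 0.459 to 0.479 in sh-Control, while MDH1/MDH2 is 0.186 to 0.193 in sh-CBX7 and 0.275 to 0.315 in sh-Control.

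The 13 other enzymes of the cycle were tested, and 5 fell, 1 rose and 7 were not called in sh-CBX7, with a median log2 fold change of -0.16. These are 38.5% lower and 7.69% higher, beside 27.2% and 26.1% of all tested genes. SDHD, a membrane anchor of succinate dehydrogenase (chromosome 11), had 17.88, 17.03 and 15.52 CPM in sh-CBX7, against 62.51, 62.24 and 62.16 CPM in sh-Control. It fell by 1.89 on the log2 scale (SE 0.08, edgeR adjusted p = 7.67e-15), the next largest difference of the cycle after IDH2. Of the remaining subunits of that enzyme, SDHA also fell, SDHC rose and SDHB was not called. SDHA, the flavoprotein, averaged 272 ± 4.33 CPM in sh-CBX7 and 356 ± 11.3 CPM in sh-Control (SD, n = 3 each; log2 fold change -0.39, edgeR adjusted p = 1.94e-06). SDHB, the iron-sulphur subunit, averaged 114 ± 7.61 CPM in sh-CBX7 and 112 ± 9.77 CPM in sh-Control (edgeR adjusted p = 0.789). SDHC, the second anchor, rose, with 141 ± 5.66 CPM in sh-CBX7 and 119 ± 10.6 CPM in sh-Control (log2 fold change 0.26, edgeR adjusted p = 0.00249).

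Among partners of the members in larger complexes, IDH3B, a regulatory subunit of the NAD-dependent isocitrate dehydrogenase, fell by 0.37 on the log2 scale (edgeR adjusted p = 6.57e-05). IDH3G, the other, had a log2 fold change of -0.16 and was called only without sh-Control replicate 2 among the alternatives (-0.273 there). DLST and DLD, which complete the 2-oxoglutarate dehydrogenase complex, had log2 fold changes of -0.09 and -0.006 and were not called, against -0.60 for OGDH. OGDHL, a relative of OGDH, was near the limit of detection at 1.12 ± 0.23 CPM in sh-CBX7 and 1.55 ± 0.21 CPM in sh-Control. Of the succinyl-CoA ligase subunits SUCLG1 fell by 0.44 on the log2 scale (edgeR adjusted p = 1.66e-05) and SUCLG2 by 0.20 (edgeR adjusted p = 0.0134), while SUCLA2 had -0.09 and was not called. SUCLG2 lost its call without sh-CBX7 replicate 3 (-0.176), without sh-Control replicate 2 (-0.169) and with upper quartile normalization (-0.147).

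**Figure D4:**
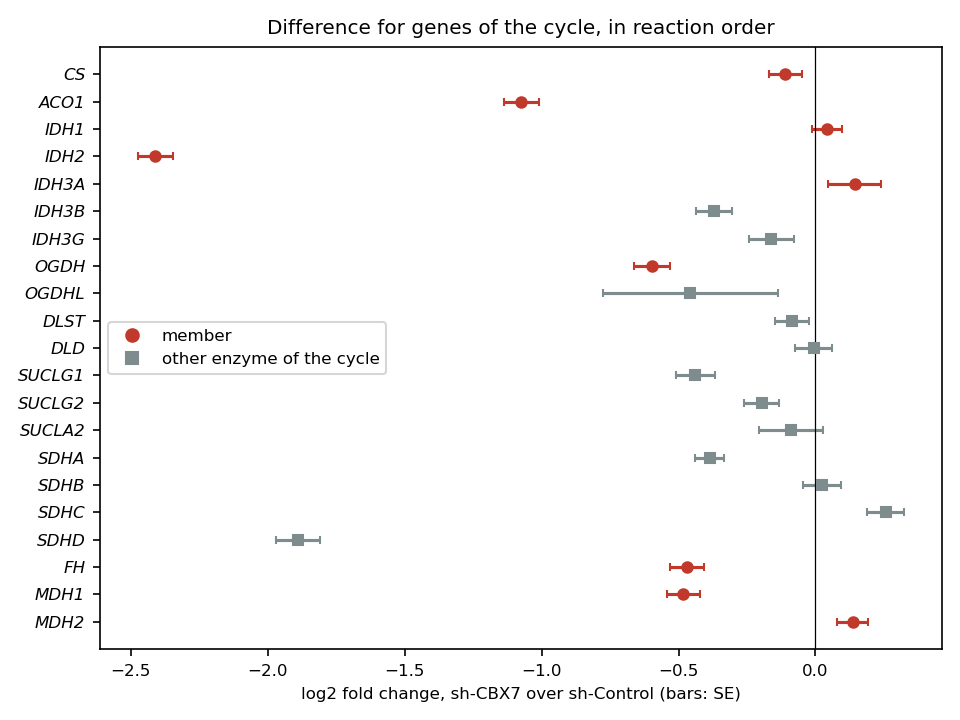
Log2 fold change (sh-CBX7 over sh-Control) with its SE for the genes of the cycle reported here, in reaction order, members as red circles and other enzymes as grey squares. IDH2 at -2.41, SDHD at -1.89 and ACO1 at -1.07 lie apart from the remaining genes shown, which range from -0.60 to 0.26.

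Pyruvate entry supplies the acetyl groups that CS uses. Of 17 such genes 7 fell, 2 rose and 8 were not called. These are 41.2% lower and 11.8% higher, where all tested genes had 27.2% and 26.1%. DLAT, the acetyltransferase core of pyruvate dehydrogenase, had 27.65, 27.48 and 28.10 CPM in sh-CBX7, against 56.56, 60.87 and 55.29 CPM in sh-Control, and fell by 1.05 on the log2 scale (edgeR adjusted p = 4.96e-11). PDPR, a regulator of pyruvate dehydrogenase phosphatase, fell by 0.88 and the pyruvate carrier subunit MPC2 by 0.61, whereas PDP1, a catalytic subunit of that phosphatase, rose by 0.79 (edgeR adjusted p at most 9.06e-07 for each).

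Glutamine feeds 2-oxoglutarate into the cycle. Of 12 tested genes of glutamine use and anaplerosis 5 fell, 3 rose and 4 were not called. The shares were 41.7% lower and 25% higher, against 27.2% and 26.1% of all tested genes. GOT2, the mitochondrial aspartate aminotransferase, had 51.32, 51.03 and 53.67 CPM in sh-CBX7, against 154.5, 148.3 and 148.7 CPM in sh-Control, and fell by 1.53 on the log2 scale (SE 0.06, edgeR adjusted p = 3.18e-15). GOT1, its cytosolic counterpart, fell by 0.55 and the glutamine transporter SLC1A5 by 0.61 (edgeR adjusted p at most 1.96e-07 for both). GOT1, GOT2, MDH1 and MDH2 are the enzymes of the malate-aspartate shuttle, and all but MDH2 were lower in sh-CBX7.

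Genes that carry or use citrate and malate fell in 7 of 10 and rose in 1. These are 70% lower and 10% higher, beside 27.2% and 26.1% of all tested genes. ACLY, which splits citrate into acetyl-CoA and oxaloacetate in the cytosol, averaged 219 ± 4.54 CPM in sh-CBX7 and 461 ± 7.78 CPM in sh-Control (SD, n = 3 each; log2 fold change -1.08, edgeR adjusted p = 1.03e-13). The fatty acid synthesis genes FASN and ACACA fell by 1.17 and 0.78, and the dicarboxylate carrier SLC25A10 by 0.91 (edgeR adjusted p at most 7.51e-06 for the 3 genes). Among 9 tested genes of 2-hydroxyglutarate removal and of NADPH supply, the product of both IDH1 and IDH2, 7 fell and 0 rose by edgeR (77.8% lower; 7 genes had an unadjusted p below 0.05, all lower). PGD, of the pentose phosphate pathway, had 311.2, 301.2 and 288.1 CPM in sh-CBX7, against 494.8, 466.1 and 489.7 CPM in sh-Control, and fell by 0.69 on the log2 scale. NNT, the mitochondrial transhydrogenase, fell by 0.44 and MTHFD1 by 0.25 (edgeR adjusted p at most 8.07e-04 for the 3 genes).

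Iron and iron-sulphur cluster genes, which bear on the cluster of ACO1, were closer to the background: of 22 tested, 5 rose, 4 fell and 13 were not called (22.7% higher, 18.2% lower). The ferritin chains rose, FTL by 0.48 and FTH1 by 0.39, as did the cluster scaffold ISCU by 0.43, whereas MMS19, of cytosolic cluster transfer, fell by 1.28 (edgeR adjusted p at most 3.08e-06 for the 4 genes). Of 12 regulators of mitochondrial biogenesis 5 fell and 1 rose (41.7% lower and 8.33% higher, beside 27.2% and 26.1% of all tested genes). PPRC1, a coactivator, fell by 1.25, the transcription factor NRF1 by 0.50, GABPB1 by 0.35 and the mitochondrial RNA polymerase POLRMT by 0.30 (edgeR adjusted p at most 0.00574 for the 4 genes). The count of regulators that rose was 0 without sh-CBX7 replicate 1 or 2 or sh-Control replicate 3 and 2 without sh-Control replicate 1, and that of iron genes that fell was 2 without sh-Control replicate 3. None of the 4 succinate dehydrogenase assembly factors was called by edgeR, 1 having an unadjusted p below 0.05. That was SDHAF1, with a log2 fold change of 0.29 (edgeR adjusted p = 0.0536) and a call by limma voom (adjusted p = 0.0312) and without sh-CBX7 replicate 2 or sh-Control replicate 1 (0.367 and 0.512).

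**Figure D5:**
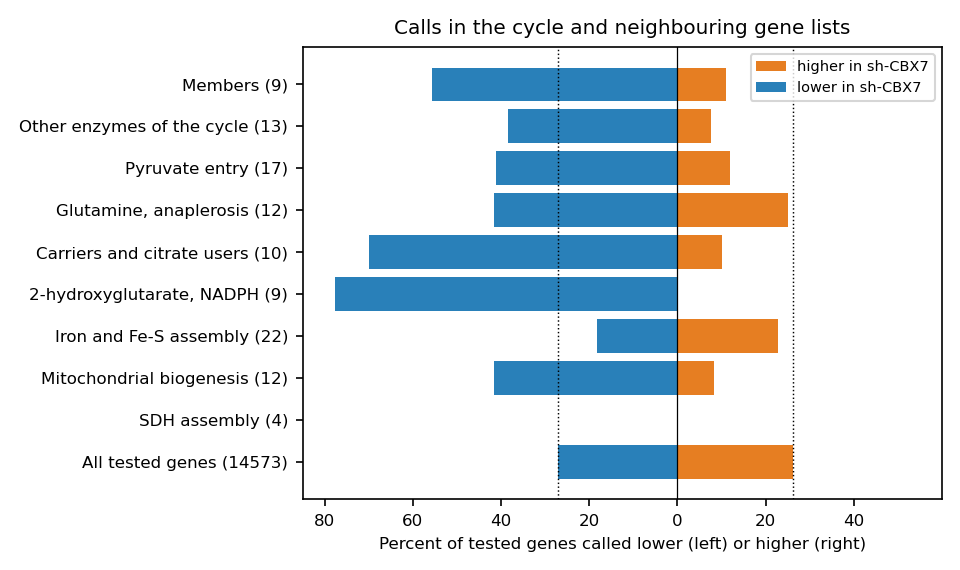
Percent of tested genes called lower (left, blue) or higher (right, orange) in sh-CBX7 for the members and each neighbouring list, with the number tested in brackets and dotted lines at 27.2% lower and 26.1% higher, the shares over all 14573 tested genes. The shares lower are 55.6% for the members, chosen on this comparison, and 77.8% for the 2-hydroxyglutarate and NADPH list.

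Genes with profiles most like the 3 members of largest difference were taken by distance between centred log2 CPM values over the 6 libraries, among 10258 coding genes averaging 5 CPM or more. With 2 groups this likeness mainly reflects the size of the difference. Nearest to IDH2 were PSAP, PDLIM1 and SCD (distances 0.101, 0.103 and 0.215), with log2 fold changes of -2.36, -2.39 and -2.30. Nearest to ACO1 were CD24, CLDND1 and NDST1 (0.077 to 0.0935), and nearest to OGDH were RPL32, ORAI2 and PPT2 (0.0582 to 0.0751).

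Libraries held 16473407 to 18868874 counts in sh-CBX7 and 16384151 to 18006814 in sh-Control, and the 9 members took 0.115% to 0.123% of them in sh-CBX7 and 0.148% to 0.150% in sh-Control. CBX7 itself had 143, 111 and 142 counts in sh-CBX7, against 203, 240 and 183 in sh-Control (edgeR adjusted p = 5.41e-05, with log2 fold change -0.71 and SE 0.13). Of 10 kidney tubule markers 8 were tested, 3 being lower, PAX8 and PAX2 among them, and ANPEP, MME and CUBN higher, while LRP2 had 2 counts in all; the summed level was 2171 to 2326 CPM in sh-CBX7 and 2323 to 2378 CPM in sh-Control. Of 10 immune markers 1 was tested, PTPRC, CD3E and MS4A1 were at 0 in each library, and the sum was 1.01 to 2.09 CPM in sh-CBX7 and 1.43 to 2.10 CPM in sh-Control. Of 8 endothelial markers CDH5 and EMCN were at 0, PECAM1 was higher, and the sum was 6.46 to 7.96 CPM in sh-CBX7 and 4.78 to 6.08 CPM in sh-Control. Of 8 fibroblast markers 5 were tested, 2 being lower and 1 higher, and the 8 summed to 11.7 to 13.96 CPM in sh-CBX7 and 12.3 to 13.6 CPM in sh-Control. The part of these markers in the members' differences was not tested.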

How the data were processed

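Poly-A selected RNA was sequenced from directional libraries, per the labels' protocols. The authors deposited raw read counts per gene; featureCounts 1.5.0-p3, HISAT2 2.0.5, Trimmomatic and FastQC are named in the submitters' processing notes, without order or strand setting. Those notes name hg19, but 99.98% of gene positions in the deposited table equal those in GENCODE 29 (GRCh38), which is used here. The table's columns named siCBX7 were matched to the sh-CBX7 labels by target and replicate number. Counts were filtered with filterByExpr, normalised with TMM and fitted without pairing in edgeR 4.0.16 (R 4.3.3), with Benjamini-Hochberg adjustment over all 14573 genes and calls below 0.05. The SE is the log2 fold change divided by the square root of F. RPKM use the deposited gene length. The fit was tested on simulated data. Alternatives were other normalizations and filters, DESeq2 1.42.0, limma 3.58.1 voom, a replicate block and leaving out each library. Members, lists and the 2 sequences searched were chosen with earlier results of these data known. Named genes are CBX7, the members, all other cycle enzymes, up to 4 genes of smallest p per neighbouring list, and 3 nearest profiles for 3 members. Sequences come from GENCODE 29 transcripts, 1 per gene (85.2% of tested genes). Within a group the chi-square per gene between libraries was 2.85 to 9.23, above sampling noise, so no 2 libraries were merged as 1 deposited more than once; this does not show separate cultures. Some genes that the naming rule selects are not reported here.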

Additional observations from a re-analysis of the deposited data

How the results depend on the processing

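Of 60 named genes 55 kept their direction and call in each of 14 alternative fits that gave them a value (13 for OGDHL, which a mean of at least 5 CPM left out); CS, IDH3G and SDHAF1 gained a call and MDH2 and SUCLG2 lost theirs in at least 1, and no called gene reversed. A change of sign in a gene called in neither fit was not counted. The log2 fold change of IDH2 ran from -2.43 to -2.36 and that of ACO1 from -1.10 to -1.02. MDH2 gave 0.101 to 0.185. Members called higher numbered 0 without the low count filter and 0 to 1 when 1 library was left out, the latter with fewer samples; the cause was not tested. With upper quartile normalization, which shifts log2 fold changes by a median of 0.0493, 1 NADPH gene and 2 biogenesis regulators were higher and 2 iron genes lower. With a mean of at least 5 CPM, which tests fewer genes, 1 pyruvate gene was higher. The count of SDH assembly factors higher was 1 with library size alone, upper quartile, no filter, 5 CPM, limma voom and the replicate block, and 0 to 1 without 1 library; the cause was not tested. Leaving out 1 library gave 2 to 5 iron genes lower and 0 to 2 biogenesis regulators higher. As counts without length, the mean ratios in sh-CBX7 and sh-Control were 4.33 and 0.791 for IDH1/IDH2, and 0.261 and 0.400 for MDH1/MDH2, by construction. Blocking on replicate number (the replicate block) gave 3972 higher and 4126 lower genes over all tested, and 1 higher and 5 lower members; same-numbered libraries shared deviations at 0.0553, 0.0614 and 0.0353, each library correlating best with its own number, too weakly to show pairs. Depth limited OGDHL, with an SE of 0.32.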
